A study of Mus musculus with 4 samples.

Results

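The osteoclast regulators analysed here are 6 genes: Tnfsf11, which encodes RANKL, Tnfrsf11b, which encodes its decoy receptor OPG, Tnfrsf11a, which encodes the RANKL receptor RANK, the ligand genes Csf1 and Il34, and their receptor gene Csf1r. They were chosen by name as the ligands that marrow stroma makes for the osteoclast lineage together with their receptors, and make up 6 of the 37310 genes in the files. All 6 had enough counts to be tested. The study asked how skeletal stem and progenitor cells of the bone marrow change with age in mice that lose bone. The labels describe wild-type (WT) C57Bl/6 mice of 3 months, called mature, and of 24 months, called elderly, with 2 libraries per age, and the paper adds that the mice were male. The titles name each library as a single numbered mouse, whereas the study's methods state that the RNA of 3 or 4 mice in a group was combined, so whether a library is 1 mouse or a pool is not settled by these sources. No mouse carried a transgene or received a treatment according to these sources. The labels name the source as whole bone marrow. The methods instead describe a sort for cells without Ter119, CD31 or CD45 (Lin-) that carry the leptin receptor (LEPR+).

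RANKL is a membrane-bound or shed ligand that binds RANK on osteoclast precursors and drives their differentiation into bone-resorbing osteoclasts. OPG is a secreted decoy that binds RANKL and keeps it from RANK. CSF1 and IL34 both bind CSF1R and keep precursors alive and dividing, and CSF1 from marrow stromal cells is needed for normal osteoclast numbers.

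The libraries held between 10472117 and 15650518 counts, and values are CPM (counts divided by the TMM-scaled library size), given in the order mature 1, mature 2, elderly 1 and elderly 2. Lepr was counted at 6419, 5665, 4121 and 5708 CPM. Ptprc, which encodes CD45, had 4, 1, 12 and 8 counts on 152 countable bases. Summed markers of LEPR+ stromal cells were 48500 and 46430 CPM in mature and 29080 and 40960 CPM in elderly libraries, and 0 of 15 passed the test. Every marker of that list nevertheless had a negative log2 fold change, from −0.018 for Esm1 to −0.88 for Ebf3. Lepr itself was at −0.30 and Cxcl12 at −0.63. Stromal markers were thus present at high levels, and Ptprc was near the limit of detection on its small window. Markers of some blood cells lay well above that limit. Summed neutrophil markers were 2237 and 1269 CPM in mature and 4814 and 4622 CPM in elderly libraries. Erythroid markers summed to 350 and 152 CPM in mature and 1051 and 1012 CPM in elderly libraries. In bulk RNA, fewer cells of a type and less RNA per cell cannot be told apart. An SD over 2 libraries is the spread between these libraries, which may be pools of mice.

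The counts cover only those exonic bases that belong to a single annotated transcript, here called unshared bases. All 25621 transcripts without an unshared base had 0 counts in every library. Tnfrsf11b (chromosome 15, 54082174 to 54110039, minus strand of mm9, 5 exons) and Tnfrsf11a (chromosome 1, 107677300 to 107744558, plus strand, 10 exons) have 1 transcript each, and all of their 2818 and 5022 exonic bases are unshared. Tnfsf11 (chromosome 14, 78677252 to 78707850, minus strand) has 2 transcripts, and only Tnfsf11-201 could be counted, on 241 unshared bases or 10.8% of its 2236. Csf1 (chromosome 3, minus strand) had counts for 5 of 7 transcripts on 1253 unshared bases, Il34 (chromosome 8, minus strand) for 3 of 5 on 250, and Csf1r for 3 of 4 on 636. A low count of Tnfsf11, Il34 or Csf1r is thus a count over a small window. How reads that cross the edge of such a window were treated is not given in the sources used here. Il34-004 had 98 counts on 11 unshared bases, fewer bases than a full-length read, so reads that reach beyond a window were counted there. Values per unshared kilobase are thus approximate and can be too high for short windows.

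The sequences below are shown because they hold 87 of the 241 unshared bases of Tnfsf11 and 118 of the 250 of Il34. The Tnfsf11 stretch is the first coding exon part of Tnfsf11-201 from its start codon, at chr14:78707475-78707696 on the minus strand of mm9, and its 87 capital bases are those that Tnfsf11-202 lacks. The other 154 unshared bases of Tnfsf11-201, the larger part of its window, lie upstream of the start codon and are not shown. The Il34 stretch is the exonic block at chr8:113270718-113270835, also on the minus strand, that only Il34-002 holds. All 118 bases are capitals because all are unshared, and how many of them are coding was not checked. Il34-002 has 8 exons and 657 coding bases, against 7 and 705 for Il34-001. Both are rich in G and C, at 71.62% and 60.17%.
Tnfsf11-201: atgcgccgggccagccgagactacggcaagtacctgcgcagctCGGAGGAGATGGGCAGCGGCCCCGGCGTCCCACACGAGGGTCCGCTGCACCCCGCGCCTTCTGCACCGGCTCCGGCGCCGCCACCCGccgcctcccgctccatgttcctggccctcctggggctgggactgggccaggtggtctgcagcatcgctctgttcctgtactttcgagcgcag
Il34-002: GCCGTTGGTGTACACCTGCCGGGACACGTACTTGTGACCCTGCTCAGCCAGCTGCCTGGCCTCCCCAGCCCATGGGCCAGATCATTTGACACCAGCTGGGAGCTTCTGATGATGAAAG

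**Figure D1:**
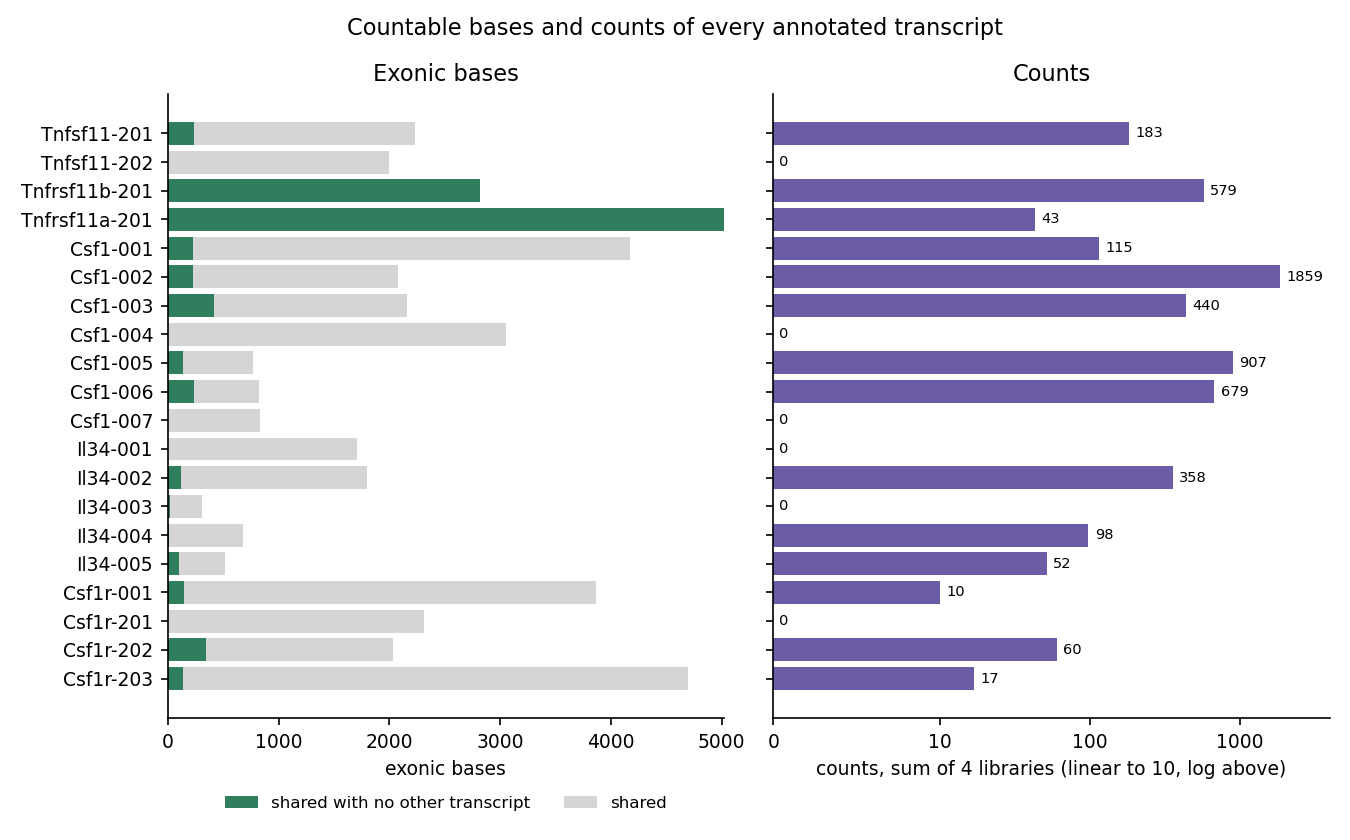
Exonic bases (left, linear axis, unshared in green and shared in grey) and counts summed over the 4 libraries (right, axis linear to 10 and logarithmic above) of every annotated transcript of the 6 genes. Tnfrsf11a-201 has 5022 unshared bases and 43 counts, whereas Csf1-002 has 227 unshared bases and 1859 counts.

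Of the 6 genes, Tnfrsf11b alone passed the test between ages. It had 52, 70, 274 and 183 counts, or 4.50, 6.03, 24.7 and 11.9 CPM. The elderly libraries were both higher than either mature library, and elderly replicate 1 was the highest. In mature mice the mean was 5.27 ± 1.09 CPM, and in elderly mice it rose to 18.3 ± 9.04 CPM (SD, n = 2 each). The log2 fold change was 1.79 (SE 0.38, 95% interval 0.97 to 2.61), a 3.46-fold rise with an adjusted p of 0.0293 from edgeR's quasi-likelihood test. Across all 22214 genes tested, 2.36% passed this test in either direction, 1.94% as higher and 0.423% as lower in elderly mice. At a stricter threshold that also asks for an absolute log2 fold change over 2, which 0.941% of genes passed (0.797% higher and 0.144% lower), Tnfrsf11b was not called.

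At the adjusted threshold used here, the call of Tnfrsf11b was lost with edgeR's exact test at the dispersion of 0.2 (adjusted p = 0.292). The unadjusted p of Tnfrsf11b in that exact test was 0.00936. The dispersion is the one set in the study's methods. Every gene called by the exact test at this setting had an absolute log2 fold change over 2, which Tnfrsf11b did not reach. On simulated counts it recovered 0 of 200 genes changed 4-fold, so it could hardly call a change of this size. The paper does not state whether its p-values were adjusted, so the lost call does not show how its own threshold would treat this gene. The call was also lost without mature replicate 1 (log2 fold change 1.59). Without elderly replicate 1 the log2 fold change was 1.20 (fold 2.30, adjusted p = 0.611) and without elderly replicate 2 it was 2.23 (fold 4.69, adjusted p = 0.605), and 0 of all genes were called by the quasi-likelihood test without either of these libraries, against 1465 and 1627 at an unadjusted p under 0.05.

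Tnfsf11 had 13, 52, 54 and 64 counts, or 1.13, 4.48, 4.87 and 4.17 CPM. Mature replicate 1 was low and the other 3 libraries lay close together, so the ages overlap. Mature mice had a mean of 2.80 ± 2.37 CPM and elderly mice one of 4.52 ± 0.497 CPM (SD, n = 2 each). The log2 fold change of 0.68 (SE 0.55) had a 95% interval of −0.51 to 1.87, which allows anything from 0.704-fold to 3.66-fold, and did not pass the test (adjusted p = 0.715, edgeR quasi-likelihood). It was 0.0099 without mature replicate 1 and 1.97 without mature replicate 2 (adjusted p = 0.997 and 0.121).

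**Figure D2:**
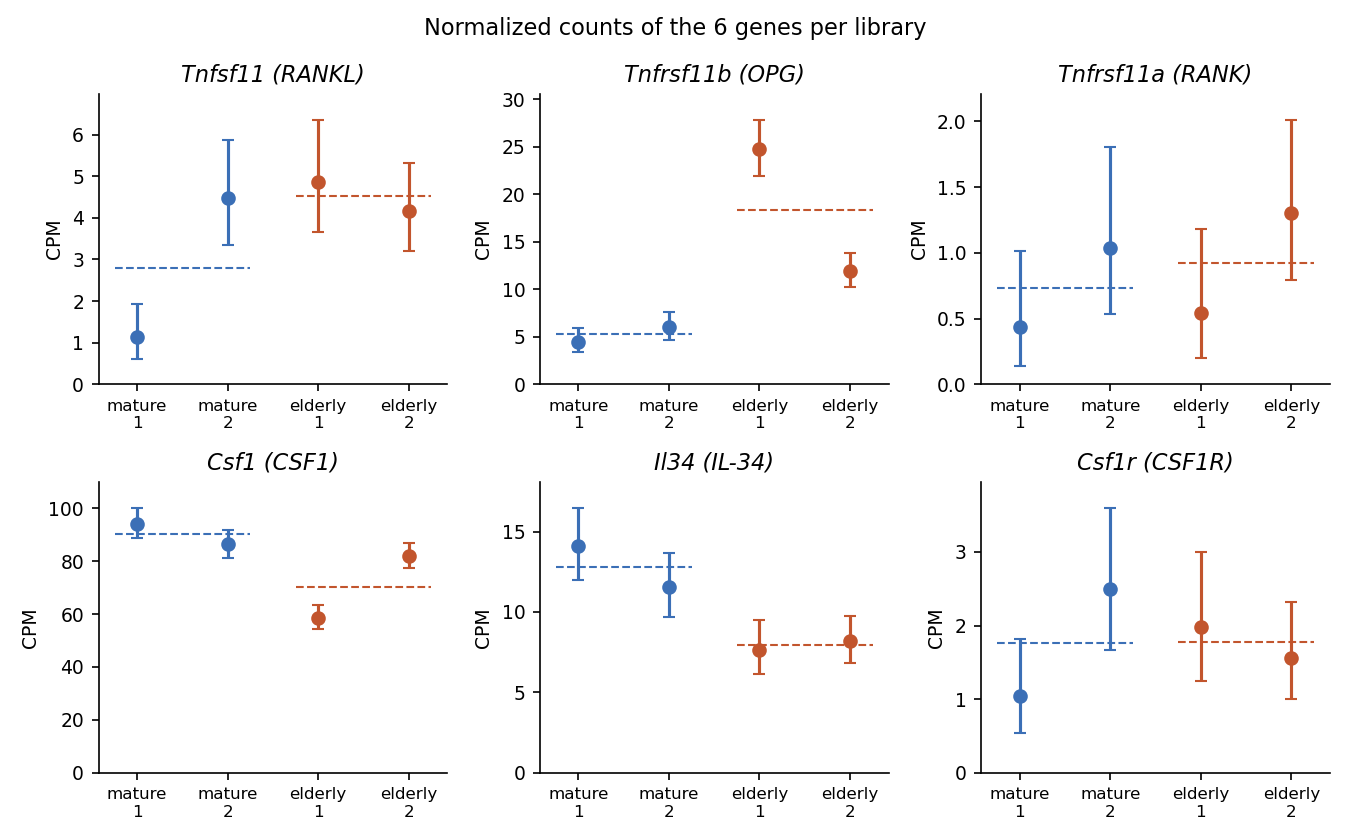
CPM of the 6 genes in each library (vertical axes from 0, scaled per gene; mature in blue, elderly in orange). Points are libraries with exact 95% Poisson intervals, which cover counting error only, and dashed lines are the means of 2 libraries. Tnfrsf11b lies at 4.50 and 6.03 CPM in mature and at 24.7 and 11.9 CPM in elderly libraries, while Tnfsf11 overlaps between the ages.

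The balance of RANKL to OPG was read as the ratio of Tnfsf11 to Tnfrsf11b counts within each library, which needs no scaling between libraries. It was 0.250 in mature replicate 1 (95% interval 0.125 to 0.466, from the exact Clopper-Pearson interval of the share of Tnfsf11 in both) and 0.743 in mature replicate 2 (0.509 to 1.08). It was 0.197 in elderly replicate 1 (0.144 to 0.265) and 0.350 in elderly replicate 2 (0.259 to 0.467). The ages overlap, because mature replicate 1 lies between the elderly libraries and mature replicate 2 stands above all others. The mean log2 ratio was −1.21 ± 1.11 in mature and −1.93 ± 0.585 in elderly mice (SD, n = 2 each), a 1.64-fold lower geometric mean ratio in elderly mice. The 2-sided exact permutation test gave p = 0.667, and with 2 libraries against 2 it cannot give less than 0.333. The log2 difference of −0.72 was 0.071, the opposite direction, without mature replicate 2 and −1.50 without mature replicate 1.

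The ratio of counts is not a ratio of transcripts, since Tnfrsf11b was counted over 2818 bases and Tnfsf11 over 241. Per unshared kilobase the ratio of Tnfsf11 to Tnfrsf11b was 2.92, 8.69, 2.30 and 4.09, above 1 in every library, with intervals from 1.46 at the lowest to 12.6 at the highest bound. The order of the libraries is the same on both scales by construction. Which of the ligand and the decoy counts as more abundant thus turned on the windows in which they could be counted. Reads that reach beyond the short window of Tnfsf11 can also raise its value per kilobase.

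**Figure D3:**
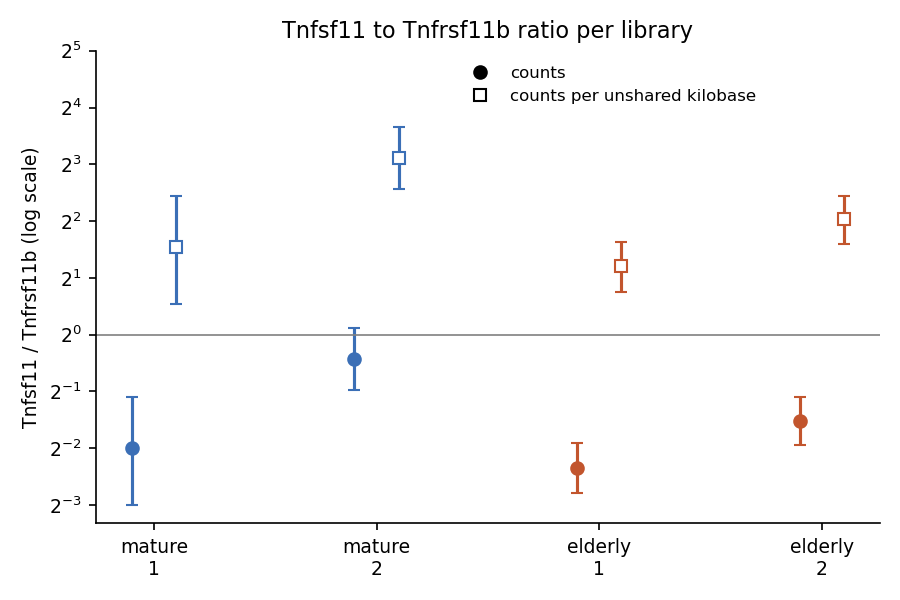
Ratio of Tnfsf11 to Tnfrsf11b in each library (logarithmic axis), as counts (filled circles) and as counts per unshared kilobase (open squares), with exact 95% intervals for counting error. The count ratio is 0.250 and 0.743 in mature and 0.197 and 0.350 in elderly libraries, and the ratio per unshared kilobase lies above the line at 1 in all 4.

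Tnfrsf11a, the receptor on the osteoclast lineage, was close to the limit of detection in spite of its 5022 countable bases. It had 5, 12, 6 and 20 counts, or 0.433, 1.03, 0.541 and 1.30 CPM, where 3 counts correspond to between 0.195 and 0.270 CPM. Both ages held 1 lower and 1 higher library. The log2 fold change was 0.35 (SE 0.82, 95% interval −1.45 to 2.15, adjusted p = 0.939, edgeR quasi-likelihood) and a change of the size seen for Tnfrsf11b lies within that interval. Its direction turned without mature replicate 1 (−0.13) and without elderly replicate 2 (−0.43).

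Csf1 was the most abundant of the 6. It had 1088, 1002, 650 and 1260 counts, or 94.1, 86.4, 58.6 and 82.0 CPM. The elderly libraries were both lower than either mature library, elderly replicate 2 by a small margin. Mature mice had a mean of 90.3 ± 5.49 CPM and elderly mice one of 70.3 ± 16.6 CPM (SD, n = 2 each). The log2 fold change of −0.36 (SE 0.22, 95% interval −0.83 to 0.11) did not pass the test (adjusted p = 0.630, edgeR quasi-likelihood).

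Il34, the other ligand of CSF1R, had 163, 134, 85 and 126 counts, or 14.1, 11.6, 7.66 and 8.20 CPM. Its ages were apart as well, with both elderly libraries lower and closer to each other than the mature ones. Mature mice had a mean of 12.8 ± 1.80 CPM and elderly mice one of 7.93 ± 0.380 CPM (SD, n = 2 each). The log2 fold change of −0.69 (SE 0.29, 95% interval −1.33 to −0.051) had an unadjusted p of 0.0365 and an adjusted p of 0.389 in edgeR's quasi-likelihood test, so Il34 failed the correction. Of all genes tested, 18.9% had both elderly libraries below both mature ones and 22% had them above, which is the background for the 2 genes lower (Csf1 and Il34) and the 1 higher (Tnfrsf11b) among these 6. The markers of LEPR+ stromal cells shifted in the same direction as Csf1 and Il34. Whether the lower values of these genes share that shift was not tested.

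Csf1r, on the plus strand of chromosome 18, had 12, 29, 22 and 24 counts, or 1.04, 2.50, 1.98 and 1.56 CPM. The elderly libraries lay between the mature ones, and the means were 1.77 ± 1.03 and 1.77 ± 0.298 CPM (SD, n = 2 each). The log2 fold change was −0.0037 (SE 0.59, adjusted p = 0.998, edgeR quasi-likelihood), with a 95% interval from −1.28 to 1.27 that leaves room for more than a doubling in either direction. Its sign depended on the library left out, from −0.50 without mature replicate 1 to 0.73 without mature replicate 2.

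The transcripts of the CSF1 axis were counted unevenly. Of the 4000 Csf1 counts, Csf1-002 held 46.5%, Csf1-005 22.7%, Csf1-006 17%, the retained-intron transcript Csf1-003 11% and Csf1-001 2.88%. Csf1-002 and Csf1-001 have 227 unshared bases each but 1859 and 115 counts. Csf1-004 and Csf1-007 have no unshared base. In the fit per transcript, Csf1-002 had a log2 fold change of −0.52 and Csf1-001 one of 0.71 (adjusted p = 0.653 and 0.769, edgeR quasi-likelihood).

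Of the 508 Il34 counts, Il34-002 held 70.5%, all from the stretch printed above. Il34-004 held 19.3% on only 11 unshared bases at its end, and Il34-005 10.2%. Il34-001, the other protein-coding transcript, has no unshared base. The log2 fold changes were −0.57, −0.79 and −0.79 (adjusted p = 0.753, 0.773 and 0.805, edgeR quasi-likelihood), all 3 in the direction of the gene. For Csf1r, Csf1r-202 held 69% of 87 counts, Csf1r-203 19.5% and Csf1r-001 11.5%, and the last 2 had 0 counts in mature replicate 1.

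Levels of different genes were compared only as CPM per unshared kilobase. In mature mice the order was Csf1 at 72.0 ± 4.38, Il34 at 51.3 ± 7.22, Tnfsf11 at 11.6 ± 9.85, Csf1r at 2.78 ± 1.62, Tnfrsf11b at 1.87 ± 0.385 and Tnfrsf11a at 0.146 ± 0.0848 (SD, n = 2). Only Csf1r and Tnfrsf11b, which are neighbours in this order, overlapped between libraries, at 1.63 and 3.93 against 1.60 and 2.14. In elderly mice Tnfrsf11b stood before Csf1r, at 6.50 ± 3.21 against 2.79 ± 0.468 (SD, n = 2), and the other genes kept their places, with Csf1 at 56.1 ± 13.2, Il34 at 31.7 ± 1.52, Tnfsf11 at 18.7 ± 2.07 and Tnfrsf11a at 0.183 ± 0.107. No neighbours overlapped there on this scale. For a gene with several transcripts, such as Csf1r, the value is an average over the windows of those transcripts. Tnfrsf11b has a single transcript, so its value stands for the whole gene. The order of Tnfrsf11b and Csf1r is thus not settled by these values. The ligands of both axes thus lay above both receptors on this scale in both ages. Reads that reach beyond a window can raise the values of genes counted in short windows, such as Il34 and Tnfsf11.

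The genes whose pattern over the 4 libraries was most like that of each regulator were sought among 14393 genes with a mean of at least 1 CPM, by the Euclidean distance between centred log2 CPM values. For Tnfrsf11b they were Bmp3, a bone morphogenetic protein gene, at a distance of 0.0713 and with 3.03, 3.79, 16.2 and 7.81 CPM, and Gm15675 at 0.133. Tnfsf11 was most like Gm11435 (0.133) and the integrin gene Itga6 (0.156), which was also low in mature replicate 1, at 2.60 CPM against 9.05, 10.5 and 9.83 CPM. Genes within a distance of 0.2 numbered 3 for Tnfrsf11b and 7 for Tnfsf11.

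The flatter patterns had more neighbours. Csf1 was most like the adiponectin receptor gene Adipor2 (0.0315) and Kcnip4 (0.0360), Il34 like the metalloproteinase gene Mmp24 (0.0506) and the proton channel gene Hvcn1 (0.0650), and Csf1r like Steap3 (0.0516) and Gm12334 (0.0542). Genes within 0.2 numbered 281, 90 and 27. Tnfrsf11a, under 1 CPM on average, was left out of this search. These distances rest on 4 libraries and are a description without a test.

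The other genes of the pathway were taken from 8 lists by role, with 145 annotated members. Of 140 tested, 10 rose and 4 fell, which is 10% against 2.36% of all genes tested. The lists hold well-expressed genes. Among genes with a mean of at least 1 CPM the shares were 11.7% (14 of 120) against 3.59% (517 of 14398). The lists were chosen with earlier results of these data known, so these shares are a description and no test of an excess. The median log2 fold change of the 140 was 0.037, against −0.0059 for all genes. With the exact test at the dispersion of 0.2, 2 rose and 1 fell, and without elderly replicate 1 or elderly replicate 2 no gene of the lists was called.

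Among 4 other binding partners of these proteins 1 fell and 0 rose, with a median log2 fold change of −0.25. Ptprz1, a receptor phosphatase that also binds IL34, had 24.3, 17.1, 3.25 and 3.38 CPM, with both elderly libraries far below the mature ones. It fell by 2.64 on the log2 scale (SE 0.32, adjusted p = 0.00179, edgeR quasi-likelihood). Sdc1, which encodes syndecan 1 and also binds IL34, had 77.0, 63.3, 42.4 and 54.7 CPM (log2 fold change −0.53, adjusted p = 0.373). Tnfsf10, which encodes TRAIL, another ligand of OPG, had 5.11, 2.07, 11.6 and 9.50 CPM (1.55, adjusted p = 0.0887). Tnfsf10 passed with DESeq2 (adjusted p = 0.0438), the robust fit (0.0114), no filter (0.00347), protein-coding genes only (0.0420) and the replicate block (0.000155). It did not pass with the exact test, filterByExpr, library size only or TMM factors without immunoglobulin, hemoglobin and histone genes. Lgr4, which encodes another RANKL receptor, had 14.6, 8.88, 13.7 and 10.5 CPM (0.038, adjusted p = 0.985).

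None of the 3 proteases that can release RANKL or CSF1 from the cell surface passed the test. Adam10 had 147, 152, 143 and 155 CPM, Adam17 14.4, 19.0, 19.4 and 12.2 CPM, and Mmp14 616, 717, 627 and 734 CPM. Their ages overlapped, and their log2 fold changes were 0.0019, −0.081 and 0.031 with SEs of 0.18, 0.30 and 0.19. The first turned direction with a stricter filter on low counts or with TMM factors computed without immunoglobulin, hemoglobin and histone genes, and all 3 did without single libraries.

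Of 36 genes of RANK signalling, 3 rose and 0 fell, and the median log2 fold change was −0.075. Prdm1, a repressor that osteoclast precursors, plasma cells and other cells use, had 0 counts in both mature libraries and 45 and 51 in the elderly ones, at least 14.2-fold higher against 3 counts per library (adjusted p = 0.00286, edgeR quasi-likelihood). Camk4, a calcium-dependent kinase, had 11.3, 9.74, 26.7 and 37.2 CPM (log2 fold change 1.60, adjusted p = 0.0104). Irf8, which restrains osteoclast formation and is needed for monocytes, had 37.8, 43.4, 92.8 and 78.2 CPM (1.07, adjusted p = 0.0206).

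Of 10 costimulation genes tested, whose products let myeloid cells complete osteoclast differentiation, 2 rose and 0 fell, with a median of 0.93. Tyrobp, the adaptor DAP12, had 22.1, 12.2, 47.3 and 47.1 CPM (log2 fold change 1.46, adjusted p = 0.0204). Plcg2, a phospholipase downstream of it, had 34.0, 26.0, 79.2 and 66.3 CPM (1.28, adjusted p = 0.0122). Both lost the call without mature replicate 2 (adjusted p = 0.136 and 0.126).

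Of 16 genes of CSF1R signalling, 1 fell and 0 rose, with a median of 0.14. The transcription factor gene Stat5a had 46.2, 51.4, 27.6 and 20.2 CPM and fell by 1.03 on the log2 scale (adjusted p = 0.0461, and 0.0635 with library sizes in place of TMM factors). Pik3r1, a regulatory subunit gene of PI3 kinase with a high CPM in this list, had 270, 220, 203 and 281 CPM (log2 fold change −0.016, adjusted p = 0.989).

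Of 16 osteoclast effector genes tested, 2 rose and 0 fell, with a median of 0.11. Car2, a carbonic anhydrase of osteoclasts and of red cells, had 101, 51.0, 450 and 316 CPM (log2 fold change 2.34, adjusted p = 0.00242). Mmp9, a gelatinase of osteoclasts and of neutrophils, had 57.5, 42.8, 154 and 166 CPM (1.68, adjusted p = 0.00209). The following 4 genes of the list are named after their values were seen and do not stand for the others. Acp5, the acid phosphatase TRAP, had 2, 1, 1 and 11 counts, Calcr, the calcitonin receptor, had 0 in every library on 101 countable bases, and Atp6v0d2, a proton pump subunit, had 0, 0, 4 and 61 counts (adjusted p = 0.0508, edgeR quasi-likelihood). Ctsk, the collagenase cathepsin K, had 189, 172, 160 and 210 CPM (log2 fold change 0.036, adjusted p = 0.976).

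Of 24 receptors and regulators through which hormones and cytokines act on Tnfsf11 and Tnfrsf11b, 1 fell and 0 rose, with a median of −0.096. The receptor subunit genes Lifr, with 2126, 2147, 2363 and 2417 CPM, and Il6st, with 2077, 2207, 1494 and 1876 CPM, were of high CPM in this list (log2 fold change 0.16 and −0.35, adjusted p = 0.834 and 0.581, edgeR quasi-likelihood).

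Of 31 other ligands tested that act on osteoclasts, 3 rose and 1 fell, with a median of 0.037. Osm, which encodes oncostatin M, had 15.8, 13.6, 46.6 and 52.0 CPM (log2 fold change 1.75, adjusted p = 0.00275). Il1b, an inflammatory cytokine gene, had 35.8, 34.2, 67.6 and 95.6 CPM (1.22, adjusted p = 0.0163). Sfrp1, a secreted WNT inhibitor gene, had 320, 271, 606 and 497 CPM (0.90, adjusted p = 0.0332). Angptl2, an angiopoietin-like gene, had 75.7, 74.7, 14.2 and 35.3 CPM and fell by 1.59 (adjusted p = 0.0286, and 0.0912 with the robust quasi-likelihood fit). Without elderly replicate 2 its log2 fold change was −2.40 and without elderly replicate 1 it was −1.07. The calls of Irf8, Stat5a, Il1b and Sfrp1 were lost whichever library was left out.

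**Figure D4:**
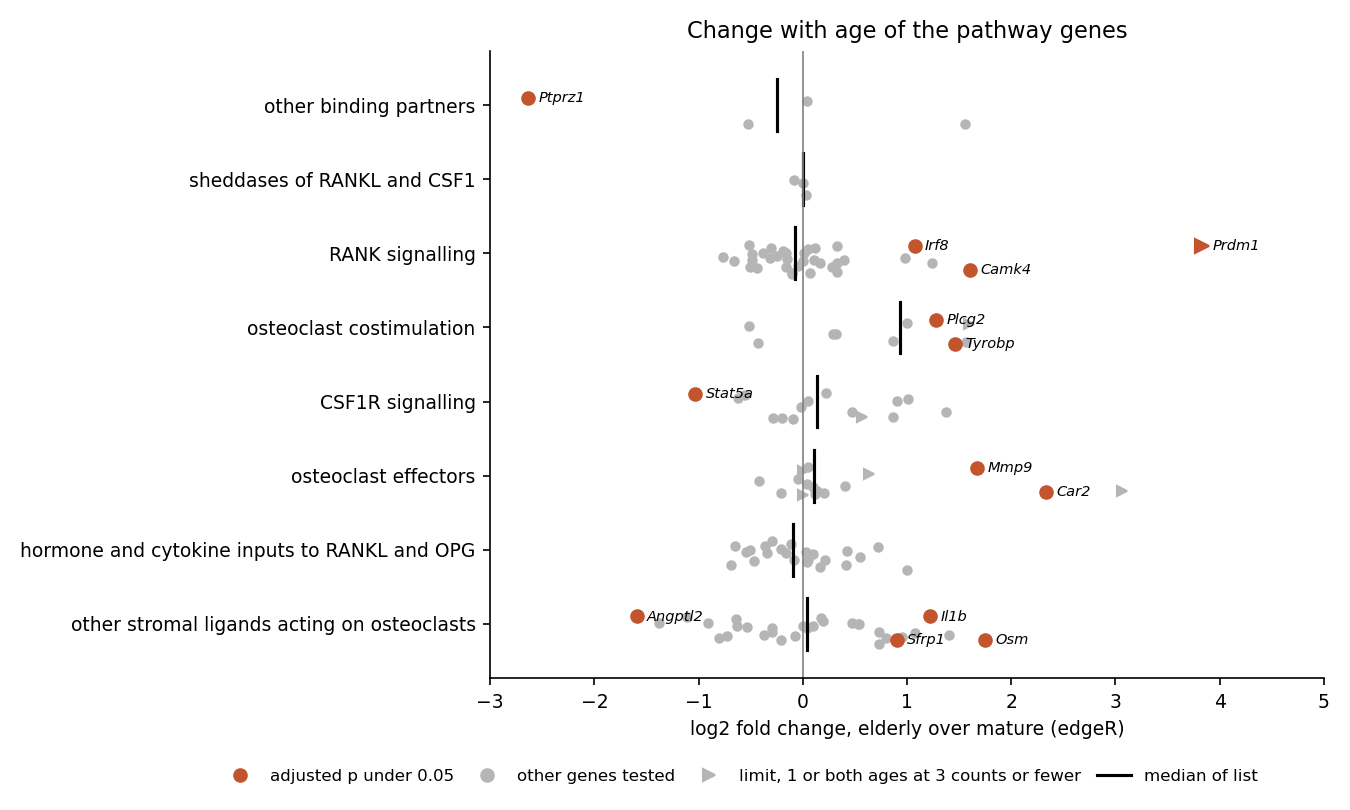
Log2 fold change (elderly over mature, linear axis) of the tested genes of the 8 lists that are reported here, with genes past an adjusted p of 0.05 in orange and named, other genes in grey, the median of each whole list as a bar, and triangles at the smallest change that the counts allow where an age was at 3 counts or fewer. The 10 named genes on the right rose and the 3 on the left fell, and the medians lie between −0.25 and 0.93.

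Markers of several blood cell types moved in the same direction as the pathway genes that rose. For macrophages and monocytes 8 of 14 tested markers rose (summed 486 to 722 CPM in mature and 1171 to 1289 CPM in elderly libraries, with Cd163 and Fcgr1 at 0). For neutrophils 7 of 11 rose (1269 to 2237 against 4622 to 4814 CPM, none at 0), and for erythroid cells 5 of 9 (152 to 350 against 1012 to 1051 CPM, none at 0). For plasma cells 2 of 5 rose (68.3 to 86.2 against 111 to 123 CPM, with Irf4 at 0), 1 of them Prdm1 itself, and for B-lineage cells 1 of 9 (34.1 to 45.3 against 68.3 to 112 CPM, with Cd22 and Cd79b at 0). Most of the plasma cell sum in mature libraries was Sdc1, which did not rise (77.0, 63.3, 42.4 and 54.7 CPM). Igj, the other plasma cell marker that rose, had 4.59, 2.41, 53.6 and 59.5 CPM. The part of these cells in the values of Irf8, Prdm1, Tyrobp, Plcg2, Car2, Mmp9, Osm and Il1b, or of Tnfrsf11b, was not tested.

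For osteoblasts and osteocytes 2 of 12 rose and 1 fell. The sums were 6491 to 7132 CPM in mature and 2293 to 4201 CPM in elderly libraries. Most of each sum was Ibsp, the marker that fell, at 6631, 5940, 1450 and 3291 CPM. Col1a1 (267, 306, 562 and 513 CPM) and Phex (59.0, 44.7, 120 and 162 CPM) rose. For chondrocytes 1 of 5 rose and 2 fell (89.8 to 142 against 92.4 to 100.1 CPM, with Col9a1 and Comp at 0). None passed for T and NK cells (0 of 9, 11.7 to 12.4 against 19.9 to 43.8 CPM, higher in both elderly libraries, with Klrb1c at 0), megakaryocytes (0 of 7, 19.6 to 230 against 95.3 to 171 CPM) or adipocytes (0 of 5, 16.03 to 20.3 against 22.9 to 35.3 CPM, with Lep at 0), and 1 of 8 rose for endothelial cells (29.9 to 43.2 against 52.5 to 53.4 CPM, with Tek at 0). The megakaryocyte sum was 19.6 CPM in mature replicate 1, the library lowest for Tnfsf11, and 230 CPM in mature replicate 2. The part of these cell types in the values of the 6 regulators was not tested.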

How the data were processed

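RNA-seq of 4 libraries, 2 per age by their titles, was used. The authors removed adapters with cutadapt, aligned to mm9 with HISAT2 and counted with featureCounts, and the deposited values are raw counts per Ensembl transcript. The libraries were directional. The strand setting and the handling of shared bases are not given in the sources used here.

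Counts were summed per gene through GENCODE M1 (388 of 95883 transcripts unmatched, at most 0.0888% of counts). Genes with a sum above 2 were kept, scaled by TMM (factors 0.970, 0.990, 1.06 and 0.983) and compared by the 2-sided quasi-likelihood test of edgeR 4.0.16 in R 4.3.3 (limma 3.58.1), Benjamini-Hochberg adjusted over 22214 genes. The biological coefficient of variation was 0.265. Libraries of 1 age differed beyond sampling noise (chi-square per degree of freedom 16.0 and 34.2). Fold changes use a prior count of 0.125. Library intervals are exact (95%) and, like the floor of 3 counts, cover counting error only. DESeq2 1.42.0, other filters, scalings and terms, and each library left out were alternatives. On simulated counts (21513 genes, 200 changed 4-fold) the test recovered 69%, DESeq2 70% and the exact test 0. False calls were 9 of 147 for the quasi-likelihood test and 18 of 158 for DESeq2. The exact test made 0 calls there and 208 in the data. Named were all 6 genes, the binding partners and proteases, the called genes of each list (or, where fewer than 2 were called, also the 2 of highest CPM) and the 2 nearest patterns per gene (prior count 2). The genes, lists and rules were chosen with earlier results of these data known. Some list genes were not analysed here, and some results of the lists are not reported.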

Additional observations from a re-analysis of the deposited data

How the results depend on the processing

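With 2 libraries per age, which may be pools, the quasi-likelihood test rests on the spread between libraries and on variance estimates shared over genes. Its 11.96 degrees of freedom thus come in part from other genes. Low counts of Tnfrsf11a, Csf1r and Tnfsf11 limit what could be detected. Tnfrsf11b kept its direction in every alternative run (log2 fold change 1.20 to 2.23 with 1 library left out). Its adjusted p passed in every fit of all 4 libraries (3.6e-06 with the replicate block to 0.0293) except the exact test at a dispersion of 0.2 (1.79, adjusted p = 0.292). That exact test called only genes with an absolute log2 fold change over 2. Tnfsf11 (0.0099 to 1.97), Csf1 (−0.62 to −0.11) and Il34 (−0.85 to −0.54) kept their direction with 1 library left out and passed in no alternative. Tnfrsf11a ranged from −0.43 to 1.08 and had no adjusted p under DESeq2. Csf1r, near 0, turned positive with DESeq2 (0.0019), without a filter (0.011), with library size only (0.055), with the replicate block (0.072) and in the fit per transcript (0.014), and ranged from −0.50 to 0.73 with 1 library left out. The log2 ratio ranged from −1.50 to 0.071 in the same way. Its mean difference over same-numbered pairs is −0.72 by arithmetic, whatever the pairing, and so tests nothing.

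Of all genes, 430 were higher and 94 lower in elderly mice. The exact test gave 179 and 29, the robust fit 691 and 188, no filter 866 and 218, the replicate block 962 and 314, and DESeq2 153 lower, while leaving out 1 library gave 0 to 461 and 0 to 94. With the fold threshold, 177 were higher (333 without a filter, 318 with the block, 0 to 320 with 1 library left out) and 32 lower (0 to 41). Of the pathway genes, 10 were higher (2 by the exact test, 17 without a filter, 19 with the block, 0 to 9 with 1 library left out) and 4 lower (1 by the exact test, 0 to 2). Adam10 turned to −0.0067 with filterByExpr, to −0.010 with TMM factors that leave out immunoglobulin, hemoglobin and histone genes, and its range with 1 library left out was −0.053 to 0.085. In the same way Adam17 ranged from −0.42 to 0.22, Lgr4 from −0.31 to 0.44 and Mmp14 from −0.084 to 0.17. The causes of these shifts were not tested. Replicate numbers came from the titles only. Deviations of same-numbered libraries correlated at 0.049 over 12828 genes, so the block is no pairing by design.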
